A study of Rattus norvegicus with 6 samples.

Results

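The hnRNP proteins and the SR proteins are the main classes of RNA-binding proteins that set how pre-mRNA is spliced. Their genes were taken here as the row symbols of the count table that begin with Hnrnp, which gave 19 genes, and those that read Srsf followed by a number, which gave 11 genes, so that 30 of 18631 genes were followed. They were measured by RNA sequencing of polyadenylated RNA from rat vascular smooth muscle cells of vessel tissue. The labels put 3 libraries in a group with the genotype MIAT knockdown (titled KD_M_1 to KD_M_3) and 3 in a group with the genotype WT (titled Scr1 to Scr3), called knockdown and control below. Small interfering RNAs and antisense oligonucleotides (ASOs) were left on the cells for 72 h at 50 nM in all. That text stands on the control libraries too, so what the control cells received is not stated, and the labels give no strain, age, sex or number of animals. The sequence of the targeting oligonucleotides and the count of pooled or separate cultures are likewise not stated. The targeted transcript Miat itself was not analysed here, and the size of its knockdown is therefore unknown.

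hnRNP proteins coat nascent transcripts and often hold splice sites back, whereas SR proteins, named for their arginine- and serine-rich tails, bind exonic enhancers and recruit the spliceosome. Both classes also act in export, stability and translation of mRNA, and the choice of exons they make together shapes the smooth muscle forms of contractile and cytoskeletal proteins. In human and mouse cells many genes of both families carry a poison exon or a spliced 3′ UTR, whose use sends the transcript to nonsense-mediated decay, and the proteins often limit their own level in this way. The counts here are per gene, so they add such transcripts to the coding ones and do not measure protein or exon choice. MIAT, a nuclear long noncoding RNA also called Gomafu, has been described to bind the splicing factors SF1, QKI and SRSF1 in mouse or human cells. The series title pairs it with the RNA helicase DHX9.

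Total counts were 18173111 to 18598394 in the knockdown libraries and 17793811 to 20121161 in the control libraries, and all 30 genes passed the filter on low counts. The share of counts in the top 10 genes was 8.49% to 9.73% for knockdown and 10.5% to 14.03% for control, control library 3 being highest. The labelled cell type was checked with 8 smooth muscle markers, whose summed level was 6010, 7617 and 5266 FPKM (counts scaled to gene length and to the library's total) in the knockdown libraries and 5989, 7285 and 5876 FPKM in the control libraries. Of these markers Myh11, Lmod1 and Myl9 fell and none rose. In the fit described below, which scales libraries otherwise than FPKM, their median log2 fold change was -0.20, with a positive value for 1 of 8. Of 7 endothelial markers the sum was 1.10 to 1.42 FPKM in knockdown and 1.39 to 1.85 FPKM in control libraries, with Tie1 at 0 in all controls and Cdh5 at 0 in 4 of 6 libraries, and Kdr fell among the 5 that were tested. The 6 leukocyte markers in the table summed to 12.5 to 15.8 FPKM in knockdown and 12.5 to 20.2 FPKM in control libraries, with Ptprc at 0 in 5 of 6 libraries. The 4 fibroblast markers summed to 197 to 256 FPKM in knockdown and 281 to 329 FPKM in control libraries, and Pdgfra, Dpt and Lum fell while Pi16 did not pass the test. The part of these differences in the results on splicing factors was not tested. In bulk RNA, fewer cells of a type and less RNA per cell cannot be told apart.

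Values of single libraries are given in the order of the replicate numbers 1, 2 and 3. Levels are given as CPM (counts scaled to a fixed library total) after TMM scaling, a scaling between libraries that sets the bulk of genes equal. Same-numbered knockdown and control libraries varied together, and the words rose and fell are used for an adjusted p under 0.05 in edgeR's quasi-likelihood fit that holds the replicate number as a blocking term. In that fit 10.5% of the 13423 tested genes were called higher in knockdown libraries and 11.1% lower. The labels state no pairing, and the test set as the main one had no block. Without the block, edgeR called 0 genes, neither among the splicing factors nor elsewhere (0% of genes). Its smallest adjusted p was 0.104, and 19.2% of genes had an unadjusted p under 0.05. The words rose and fell thus rest on the alternative fit with the block, which has 2 residual degrees of freedom. DESeq2, on the same design without the block, called 2.73% of genes higher, and limma-voom called 0.

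Members of both families were higher in the knockdown libraries or did not pass the test, and no member fell. Of 19 hnRNP genes, 7 rose (Hnrnpf, Hnrnpdl, Hnrnpab, Hnrnpc, Hnrnpd, Hnrnpu and Hnrnpa3), and of 11 SR genes, 5 rose (Srsf1, Srsf4, Srsf3, Srsf10 and Srsf2), against 10.5% of all genes. The shares of all genes given here and below are not matched for level. By mean FPKM, 15 of 19 hnRNP and 3 of 11 SR genes stood in the top 10% of tested genes. The part of level in these counts was not tested. The rises were small, 1.14-fold to 1.33-fold in the hnRNP genes and 1.17-fold to 1.21-fold in the SR genes. Summed over the family, hnRNP transcripts made up 5307, 5128 and 5071 CPM in knockdown libraries, against 4484, 4665 and 4599 CPM in control libraries, a ratio of means of 1.13 (5168 ± 123 against 4583 ± 91.7 CPM, SD, n = 3 each). SR transcripts summed to 1661, 1517 and 1542 CPM in knockdown libraries, against 1454, 1395 and 1414 CPM in control libraries, a ratio of 1.11 (1573 ± 76.6 against 1421 ± 29.7 CPM). For either sum the 3 knockdown libraries lay above the 3 control libraries. A two-sided exact permutation test of 3 against 3 libraries that ignores the pairs cannot go below p = 0.10. One that keeps the 3 pairs has a higher floor.

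The median log2 fold change was 0.12 over the hnRNP genes and 0.16 over the SR genes, beside -0.0090 over all tested genes. The SR median was the value of a single gene, Srsf12, the least expressed member, whose standard error was 0.258. A positive value was seen for 15 of 19 and 9 of 11 members, beside 48.5% of all genes. DESeq2 without the block called 5 hnRNP genes (Hnrnpab, Hnrnpc, Hnrnpd, Hnrnpdl and Hnrnpf) and 1 SR gene (Srsf1) higher, against 2.73% of all genes. Without the block, edgeR gave 6 hnRNP and 5 SR genes an unadjusted p under 0.05, against 19.2% of all genes. All 3 knockdown libraries lay above all 3 control libraries for 10 of 19 hnRNP and 5 of 11 SR genes, against 14.2% of all genes, and the opposite order was seen for 0 members, against 11.8% of all genes. A group of 4 of the rises, in Hnrnpab, Hnrnpc, Hnrnpdl and Hnrnpf, passed the threshold in all 8 versions of the block fit that were run (as given, in DESeq2, under total count scaling, with a length correction, without the low-count filter, and without each pair). The share of all genes that passed in all 8 was not computed. In the version without pair 2, 2.56% of all genes were called higher. A pair is the knockdown and the control library of the same number. The other 8 of the 12 were not past the threshold without pair 1, nor without pair 2, and leaving out a pair leaves 1 residual degree of freedom.

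**Figure D1:**
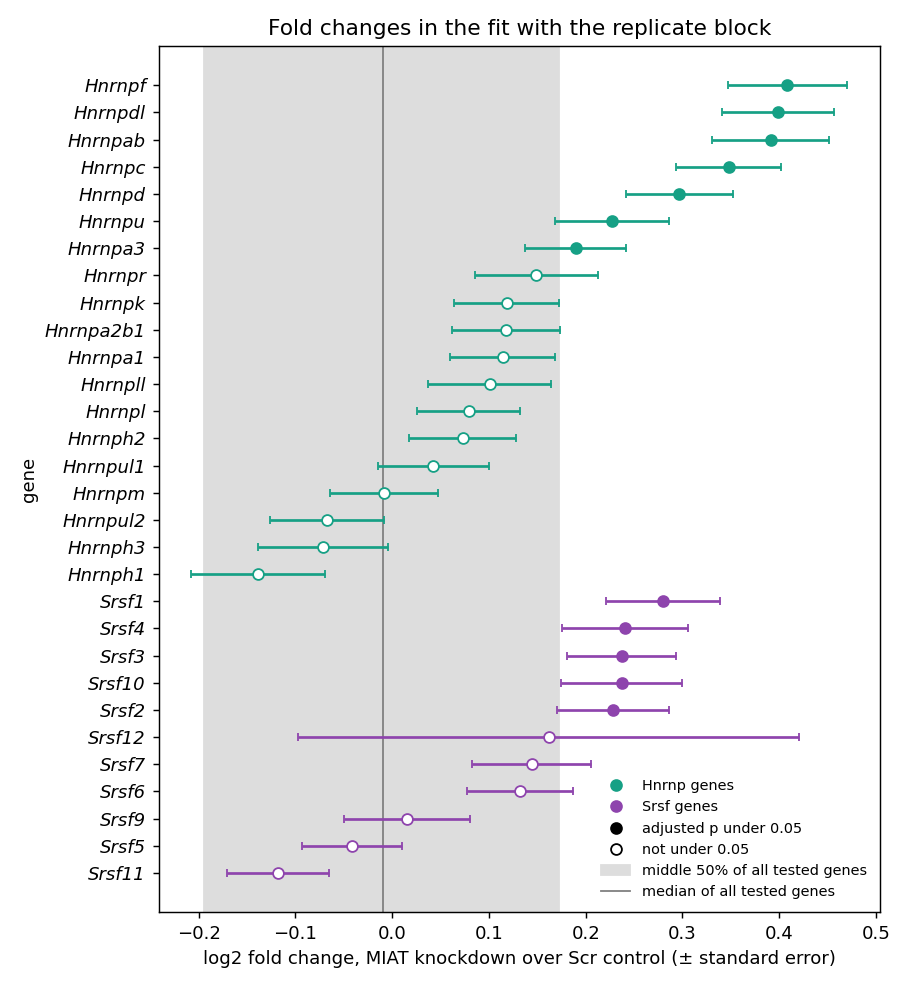
The log2 fold change of each gene, MIAT knockdown over Scr control, with its standard error, from the edgeR fit with the replicate block; filled points have an adjusted p under 0.05, and the grey band holds the middle 50% of all tested genes (-0.19 to 0.17). The 12 filled points lie between 0.19 and 0.41, right of the band, and the largest negative value is -0.14, of Hnrnph1.

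Among the hnRNP genes, all 3 of the D group, whose proteins bind AU-rich RNA, rose. Hnrnpab stood at 549.7, 504 and 523 CPM in the knockdown libraries, against 384, 404 and 414 CPM in the control libraries. Hnrnpab, also known as CArG-binding factor A, was the most abundant member per gene length, and each of its knockdown values exceeded each of its control values. It rose 1.31-fold (log2 fold change 0.39, SE 0.0604, adjusted p = 0.00468), and DESeq2 without the block gave an adjusted p of 3.54e-04. Hnrnpdl stood at 221, 179 and 212 CPM in the knockdown libraries, against 158, 146 and 159 CPM in the control libraries. Hnrnpdl, a close relative of Hnrnpd, was lowest in library 2 of either group, and the groups did not overlap. Its rise was 1.32-fold (log2 fold change 0.40, SE 0.0583, adjusted p = 0.00399), with differences within pairs 1 to 3 of 0.48, 0.29 and 0.42 (log2). Hnrnpd stood at 109, 108 and 102 CPM in the knockdown libraries, against 85.2, 88.8 and 85.7 CPM in the control libraries. Hnrnpd encodes AUF1, a factor that speeds or slows the decay of AU-rich mRNAs. It rose 1.23-fold (log2 fold change 0.30, SE 0.0556, adjusted p = 0.00884), and the call ended without pair 1 (log2 fold change 0.27, adjusted p = 0.0586) and without pair 2 (0.31, adjusted p = 0.0762).

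Hnrnpc encodes the C proteins, which bind runs of uridine and keep cryptic exons out of human mRNAs. Its transcript stood at 226, 219.6 and 221 CPM in the knockdown libraries, against 177, 179 and 167 CPM in the control libraries. The libraries of a group lay close together, with a coefficient of variation of 1.51% in knockdown and 3.71% in control libraries, and the groups stood well apart. Hnrnpc rose 1.27-fold (log2 fold change 0.35, SE 0.0540, adjusted p = 0.00473). Hnrnpu encodes the scaffold attachment factor SAF-A, which ties RNA to chromatin and is also an abundant splicing regulator. Hnrnpu stood at 597, 549 and 553 CPM in the knockdown libraries, against 474, 497 and 479 CPM in the control libraries. It rose 1.17-fold (log2 fold change 0.23, SE 0.0589, adjusted p = 0.0276), without overlap between groups, and the call ended without pair 1 (log2 fold change 0.18, adjusted p = 0.224) and without pair 2 (0.27, adjusted p = 0.110). Its relatives Hnrnpul1 and Hnrnpul2 did not pass the test, with log2 fold changes of 0.043 and -0.067 and overlapping groups.

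The F and H group, whose proteins bind runs of guanosine, was split. Hnrnpf stood at 375, 335 and 353 CPM in the knockdown libraries, against 259, 273 and 269 CPM in the control libraries. Hnrnpf had the largest rise of the family, 1.33-fold (log2 fold change 0.41, SE 0.0618, adjusted p = 0.00436), and was higher in each pair, by 0.53, 0.30 and 0.40 (log2). Hnrnph1 stood at 199, 213 and 186 CPM in the knockdown libraries, against 200.4, 225 and 233 CPM in the control libraries. Hnrnph1 was about level with its control in pair 1 and lower in pair 3, and the groups overlapped. Its log2 fold change of -0.14 (SE 0.0689) did not pass the test (adjusted p = 0.184). Hnrnph2 and Hnrnph3, with means of 115 ± 4.59 and 39.9 ± 4.16 CPM in knockdown and 109.6 ± 6.26 and 41.8 ± 2.85 CPM in control libraries (SD, n = 3), had log2 fold changes of 0.073 and -0.072 and did not pass either.

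The A and B group holds the classical core proteins of hnRNP particles, which bind splicing silencers and shuttle between nucleus and cytoplasm. Hnrnpa3 stood at 393, 407 and 374 CPM in the knockdown libraries, against 341, 364 and 326 CPM in the control libraries. Hnrnpa3 rose 1.14-fold (log2 fold change 0.19, SE 0.0524, adjusted p = 0.0345), with groups that did not overlap. Its call ended without pair 1 (log2 fold change 0.18, adjusted p = 0.197), without pair 2 (0.20, adjusted p = 0.178) and in DESeq2 with the block (adjusted p = 0.0987). Hnrnpa1 stood at 433, 461 and 459 CPM in the knockdown libraries, against 388, 420.2 and 443 CPM in the control libraries. Hnrnpa1, the second most abundant member per length, had a highest control value above its lowest knockdown value and did not pass the test (log2 fold change 0.11, SE 0.0544, adjusted p = 0.167). Hnrnpa2b1, at 522 ± 35.7 CPM in knockdown and 480.3 ± 10.1 CPM in control libraries, had groups that did not overlap but a log2 fold change of 0.12 that did not pass (adjusted p = 0.164). RefSeq's annotation of the rat assembly GRCr8 names 51 pseudogenes after Hnrnpa1, 7 after Hnrnpk, 6 after Hnrnpc, 4 after Hnrnpf, 3 after Hnrnph1 and 2 after each of Hnrnpd, Hnrnpl, Hnrnpm and Hnrnpr. None of these has a row in the count table, and how reads shared with them were counted is not given in the sources used here, so the values of these genes are uncertain in that respect.

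The remaining hnRNP genes did not pass the test. Hnrnpk, which binds runs of cytidine, stood at 537 ± 30.7 CPM in knockdown and 494 ± 18.2 CPM in control libraries, with overlapping groups and a log2 fold change of 0.12 (SE 0.0542). Hnrnpl, which binds CA repeats, and Hnrnpr, a relative of Syncrip, had knockdown libraries above all controls with log2 fold changes of 0.079 and 0.15 (adjusted p = 0.317 and 0.131). Hnrnpll, known from the splicing of the leukocyte antigen CD45 in mouse T cells, and Hnrnpm had overlapping groups, with log2 fold changes of 0.10 and -0.0087. Over the 12 members that did not pass, log2 fold changes ran from -0.14 to 0.15 and adjusted p-values from 0.131 to 0.93. The standard error of every hnRNP gene lay between 0.0524 and 0.0689 in the fit with the block. Without the block it ran from 0.0654 (Hnrnpd) to 0.101 (Hnrnph3). How small a difference can be resolved therefore depends on the fit.

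**Figure D2:**
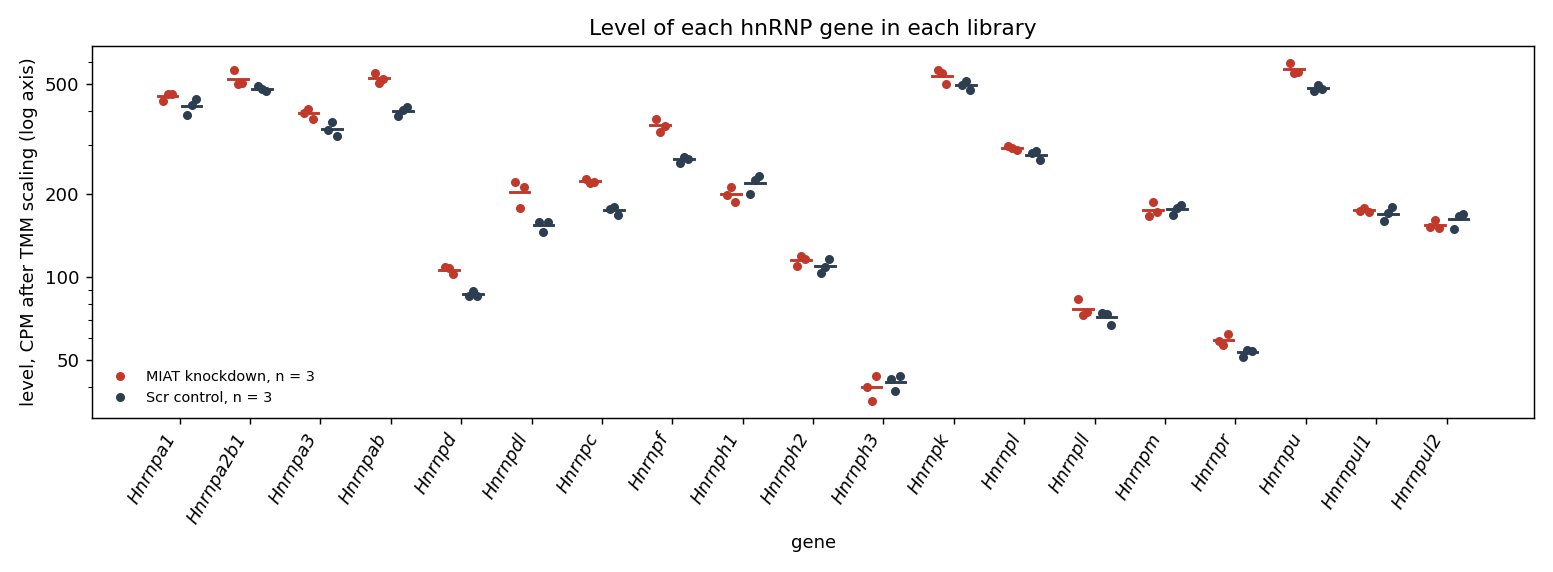
Level of each hnRNP gene in each library, in CPM after TMM scaling on a log axis, with 3 MIAT knockdown libraries left of 3 Scr control libraries and a bar at each group's mean. The knockdown points of Hnrnpab (549.7, 504 and 523 CPM) and Hnrnpf (375, 335 and 353 CPM) stand clear above their controls, whereas those of Hnrnph1 overlap them.

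Among the SR genes, the rises were spread over several branches of the family. Srsf1 stood at 300.01, 275 and 279 CPM in the knockdown libraries, against 228, 235 and 240.3 CPM in the control libraries. Srsf1 encodes the founding SR protein, also called SF2/ASF, and its lowest knockdown value exceeded its highest control value. It rose 1.21-fold (log2 fold change 0.28, SE 0.0588, adjusted p = 0.0133), the largest change of the family, and DESeq2 without the block gave an adjusted p of 0.0216. The edgeR call ended without pair 1 (log2 fold change 0.23, adjusted p = 0.114) and without pair 2 (0.31, adjusted p = 0.0855). Srsf9, its nearest relative, stood at 45.8 ± 1.39 CPM in knockdown and 45.3 ± 1.42 CPM in control libraries, and its log2 fold change of 0.015 (SE 0.0649) did not pass the test.

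Srsf2 encodes the SR protein also called SC35 and had the highest SR level per gene length. Its transcript stood at 297, 264 and 277 CPM in the knockdown libraries, against 236, 230.5 and 249 CPM in the control libraries. Srsf2 rose 1.17-fold (log2 fold change 0.23, SE 0.0579, adjusted p = 0.0259), without overlap between groups. The call ended without pair 1 (log2 fold change 0.18), without pair 2 (0.25), in DESeq2 with the block (adjusted p = 0.0550) and with the correction for gene length (adjusted p = 0.0521). Srsf3 and Srsf7 encode small SR proteins that hand spliced mRNA to the export receptor NXF1. Srsf3 stood at 193, 179 and 186 CPM in the knockdown libraries, against 168, 158 and 148 CPM in the control libraries. Srsf3 rose 1.18-fold (log2 fold change 0.24, SE 0.0564, adjusted p = 0.0207), with its largest difference in pair 3, and the groups did not overlap. The call ended without pair 1 (log2 fold change 0.26), without pair 2 (0.27) and in DESeq2 with the block (adjusted p = 0.0582). Srsf7, at 100.38 ± 7.04 CPM in knockdown and 91.0 ± 9.48 CPM in control libraries, had overlapping groups and did not pass (log2 fold change 0.14, SE 0.0619, adjusted p = 0.131).

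Srsf4, Srsf5 and Srsf6 encode the related proteins SRp75, SRp40 and SRp55. Srsf4 stood at 50.9, 47.8 and 45.9 CPM in the knockdown libraries, against 44.1, 38.7 and 39.7 CPM in the control libraries. Srsf4 rose 1.18-fold (log2 fold change 0.24, SE 0.0655, adjusted p = 0.0326), by similar amounts in each pair (0.21, 0.31 and 0.21, log2). The call ended without pair 1 (log2 fold change 0.26), without pair 2 (0.21) and in DESeq2 with the block (adjusted p = 0.200). Srsf5 stood at 199.5, 186 and 179 CPM in the knockdown libraries, against 207, 193 and 181 CPM in the control libraries. Srsf5 was a little lower than its control in every pair, but the groups overlapped and its log2 fold change of -0.042 (SE 0.0520) did not pass the test. Srsf6 stood at 173 ± 7.99 CPM in knockdown and 158 ± 7.11 CPM in control libraries and did not pass (log2 fold change 0.13, SE 0.0549, adjusted p = 0.120), though it did without pair 3 (log2 fold change 0.16, adjusted p = 0.0381).

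Srsf10 encodes SRp38, which in human cells turns into a general splicing repressor when it loses its phosphates. Srsf10 stood at 129.5, 112 and 114 CPM in the knockdown libraries, against 100.01, 98.1 and 103 CPM in the control libraries. Knockdown library 1 was highest, and the groups did not overlap. Srsf10 rose 1.18-fold (log2 fold change 0.24, SE 0.0623, adjusted p = 0.0290), and the call ended without pair 1 (log2 fold change 0.17), without pair 2 (0.26) and in DESeq2 with the block (adjusted p = 0.0965). Srsf12, its relative, was the least expressed member at 2.97, 3.11 and 1.71 CPM in knockdown and 2.38, 2.36 and 2.09 CPM in control libraries, with a standard error of 0.258 around its log2 fold change of 0.16. Srsf11 stood at 157, 146 and 139 CPM in the knockdown libraries, against 168, 155 and 156 CPM in the control libraries. Srsf11, which encodes the SR-like protein p54, had log2 differences of -0.10, -0.088 and -0.17 within pairs 1 to 3 and overlapping groups, and did not pass the test (log2 fold change -0.12, SE 0.0531, adjusted p = 0.146). RefSeq names 10 pseudogenes after Srsf3, 7 after Srsf7, 3 after Srsf10, 2 after Srsf6 and 1 after Srsf5, none with a row in the count table, so the same uncertainty holds for these genes.

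**Figure D3:**
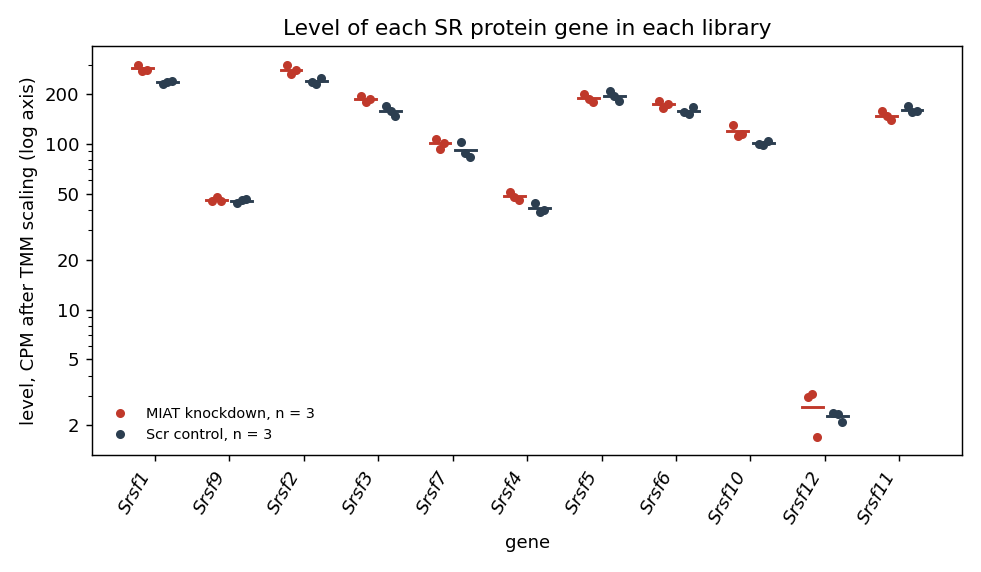
Level of each SR gene in each library, in CPM after TMM scaling on a log axis, with 3 MIAT knockdown libraries left of 3 Scr control libraries and a bar at each group's mean. Knockdown points of Srsf1 (300.01, 275 and 279 CPM) lie above all control points, those of Srsf11 overlap them from below, and Srsf12 lies far below the rest, at 1.71 to 3.11 CPM in knockdown libraries.

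Per gene length, hnRNP genes were among the most abundant transcripts of these cells. By mean FPKM, 15 of 19 hnRNP genes and 3 of 11 SR genes stood in the top 10% of tested genes, the lowest hnRNP gene was at percentile 69.3, and Srsf12 was at percentile 14.8. Hnrnpab led the hnRNP genes with 315 ± 19.5 FPKM in knockdown and 222 ± 3.15 FPKM in control libraries, followed by Hnrnpa1 with 213 ± 4.15 and 182 ± 6.51 FPKM. Srsf2 led the SR genes with 97.5 ± 7.55 FPKM in knockdown and 77.1 ± 1.76 FPKM in control libraries. Since FPKM divide by the total count, the knockdown values include the shift between the scalings that is given below. Many neighbours in the order of levels could not be told apart: library values of adjacent genes were free of overlap for 8 of 18 hnRNP neighbours in knockdown and 10 of 18 in control libraries, and for 7 of 10 SR neighbours in knockdown and 8 of 10 in control libraries. The median coefficient of variation across 3 libraries was 4.45% in knockdown and 4.17% in control libraries for hnRNP genes, and 5.57% and 4.51% for SR genes.

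Shares within a family do not depend on the scaling between libraries, though a correction for gene length can move them. Hnrnpab took 17.1% ± 0.537 of the hnRNP FPKM in knockdown and 14.8% ± 0.268 in control libraries (SD, n = 3), ranking 1 in both. Hnrnpf took 7.01% ± 0.306 in knockdown and 5.96% ± 0.0400 in control libraries, rank 4 against rank 7. Hnrnph1 took 5.82% ± 0.383 in knockdown and 7.24% ± 0.403 in control libraries, rank 7 against rank 4, so the pair changed places. Among SR genes, Srsf3 moved to rank 2 in knockdown against rank 3 in control libraries (14.4% ± 0.218 against 13.5% ± 0.679). Srsf5 took 13.5% ± 0.381 in knockdown and 15.4% ± 0.793 in control libraries, rank 3 against rank 2. A share also falls when other members rise, so these values show unequal change and not a loss of one transcript.

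Ratios of counts between related genes within a library are likewise free of the scaling between libraries. The correction for gene length given below can still move them where the lengths of the genes differ. The 8 pairs below were chosen with the values known, so they are a description without a test. The log2 ratio of Hnrnpf to Hnrnph1 was 0.92, 0.65 and 0.92 in the knockdown libraries, against 0.37, 0.28 and 0.20 in the controls. This was the widest gap of the 8 pairs, 0.55 on the log2 scale, and library 2 had the smallest ratio of the knockdown group. The log2 ratio of Srsf1 to Srsf9 was 2.74, 2.54 and 2.63 in knockdown libraries and 2.38, 2.37 and 2.37 in control libraries. Srsf10 to Srsf11 gave -0.27, -0.39 and -0.28 in knockdown and -0.74, -0.66 and -0.60 in control libraries. In both pairs all knockdown ratios lay above all control ratios, by 0.26 and 0.35 between the means. The same order held for Hnrnpab to Hnrnpa1, Hnrnpu to Hnrnpul2 and Srsf4 to Srsf5, with differences of 0.28, 0.29 and 0.28. The ratios of Hnrnpa3 to Hnrnpa1 and of Srsf3 to Srsf7 overlapped between groups, with differences of 0.075 and 0.093.

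**Figure D4:**
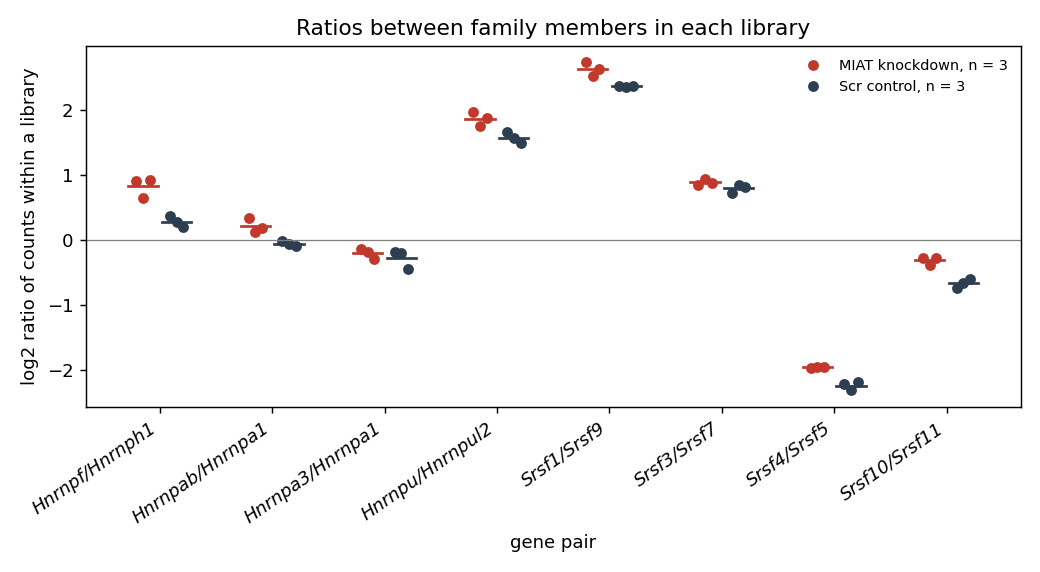
The log2 ratio of counts between 2 related genes in each library, for 8 gene pairs, with 3 MIAT knockdown libraries left of 3 Scr control libraries and a bar at each group's mean. Knockdown ratios of Hnrnpf to Hnrnph1 (0.92, 0.65 and 0.92) stand above control ratios (0.37, 0.28 and 0.20), whereas those of Hnrnpa3 to Hnrnpa1 overlap.

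How many members were called depended on the scaling. Scaling by total counts in place of TMM shifted the median over all genes by 0.107 (log2) and called 2822 genes higher and 819 lower, against 1412 and 1486 with TMM. Under it, 13 hnRNP and 7 SR genes were higher, against 21.0% of all genes. The family medians became 0.23 and 0.27, that of the SR genes again being the value of Srsf12. The genes gained were Hnrnpa1, Hnrnpa2b1, Hnrnph2, Hnrnpk, Hnrnpl, Hnrnpr, Srsf6 and Srsf7. The small negative values of Hnrnph3, Hnrnpm, Hnrnpul2 and Srsf5, none past the test, turned to between 0.037 and 0.099, while Hnrnph1 and Srsf11 kept values below 0. With a correction for gene length, 7 hnRNP and 4 SR genes were higher, against 9.42% of all genes, Srsf2 being the one lost, and Srsf9 turned to -0.076. DESeq2 with the block called 6 hnRNP genes and Srsf1 higher, against 4.92% of all genes.

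**Figure D5:**
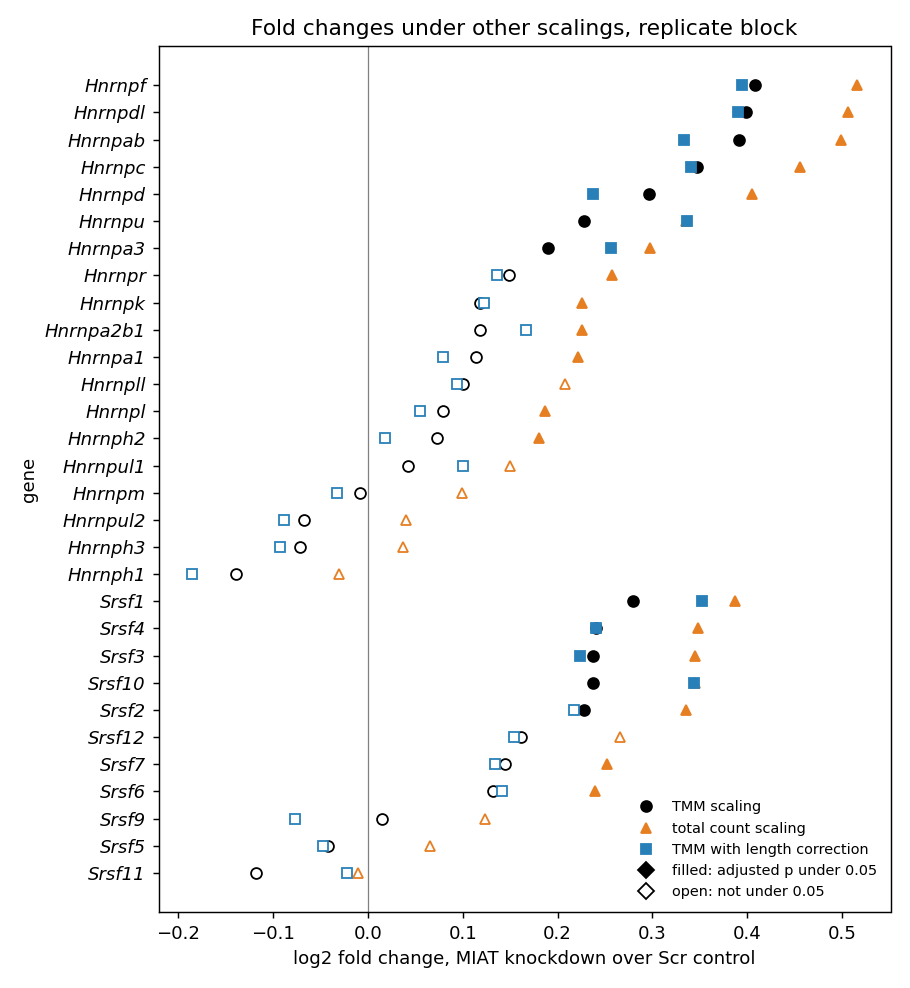
The log2 fold change of each gene, MIAT knockdown over Scr control, in the edgeR fit with the replicate block under TMM scaling (circles), total count scaling (triangles) and TMM with a length correction (squares), filled where the adjusted p was under 0.05. Triangles lie right of circles for all 30 genes, by about the 0.107 by which the median of all genes moved, and 13 hnRNP and 7 SR triangles are filled.

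The 250 bases before each start site were read from RefSeq's promoters of GRCr8 to show what the promoters of the members have in common; 18 of 19 hnRNP genes (21 start sites) and 11 of 11 SR genes (12 start sites) matched by symbol. These are letters of the reference and not measurements of these cells. The CCAAT box, the core of sites bound by the factor NF-Y, was searched as CCAAT or its reverse complement ATTGG. It stood in 15 of 21 hnRNP windows and 5 of 12 SR windows, against 34.0% of all 33469 windows. Windows are shown for genes of each kind: Hnrnpc, Hnrnpab, Srsf1 and Srsf3 rose and hold the box, Hnrnpu and Srsf4 rose and hold none, Hnrnpa1 did not pass the test and holds it, and Hnrnph1 and Srsf5 did not pass and hold none. Each is written 5′ to 3′ on the gene's strand and ends at the base before the start site, with CCAAT or ATTGG in capitals.
Hnrnpc, chr15:27282716-27282965, minus strand: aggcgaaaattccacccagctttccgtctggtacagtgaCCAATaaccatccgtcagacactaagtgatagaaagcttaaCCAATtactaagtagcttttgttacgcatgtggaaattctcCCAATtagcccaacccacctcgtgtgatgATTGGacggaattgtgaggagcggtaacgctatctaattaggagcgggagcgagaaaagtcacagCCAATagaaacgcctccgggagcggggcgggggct
Hnrnpab, chr10:36363899-36364148, minus strand: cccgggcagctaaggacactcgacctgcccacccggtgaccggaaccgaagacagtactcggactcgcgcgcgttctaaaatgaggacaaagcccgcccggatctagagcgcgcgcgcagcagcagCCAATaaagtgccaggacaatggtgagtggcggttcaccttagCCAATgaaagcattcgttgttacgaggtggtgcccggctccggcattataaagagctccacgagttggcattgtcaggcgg
Hnrnpu, chr13:92618581-92618830, minus strand: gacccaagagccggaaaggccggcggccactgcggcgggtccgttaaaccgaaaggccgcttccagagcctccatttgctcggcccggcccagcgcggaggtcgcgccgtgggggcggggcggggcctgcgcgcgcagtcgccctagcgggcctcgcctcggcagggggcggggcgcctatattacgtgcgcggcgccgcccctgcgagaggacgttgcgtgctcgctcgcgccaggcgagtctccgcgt
Hnrnpa1, chr7:136253868-136254117, plus strand: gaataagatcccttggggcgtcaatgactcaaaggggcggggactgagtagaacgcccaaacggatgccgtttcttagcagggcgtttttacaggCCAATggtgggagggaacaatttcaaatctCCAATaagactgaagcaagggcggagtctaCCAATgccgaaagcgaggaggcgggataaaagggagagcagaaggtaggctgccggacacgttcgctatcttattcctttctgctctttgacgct
Hnrnph1, chr10:35194383-35194632, plus strand: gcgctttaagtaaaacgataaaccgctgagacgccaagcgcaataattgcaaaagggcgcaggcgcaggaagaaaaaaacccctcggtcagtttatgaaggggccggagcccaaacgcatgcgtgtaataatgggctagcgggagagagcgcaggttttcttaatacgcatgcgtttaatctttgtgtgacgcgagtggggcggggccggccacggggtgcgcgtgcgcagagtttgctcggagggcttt
Srsf1, chr10:73336248-73336497, plus strand: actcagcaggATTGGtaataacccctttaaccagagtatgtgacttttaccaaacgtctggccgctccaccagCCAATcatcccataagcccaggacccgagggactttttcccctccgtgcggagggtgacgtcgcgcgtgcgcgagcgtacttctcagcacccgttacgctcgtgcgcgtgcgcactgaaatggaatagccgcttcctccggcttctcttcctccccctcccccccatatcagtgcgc
Srsf3, chr20:7093335-7093584, plus strand: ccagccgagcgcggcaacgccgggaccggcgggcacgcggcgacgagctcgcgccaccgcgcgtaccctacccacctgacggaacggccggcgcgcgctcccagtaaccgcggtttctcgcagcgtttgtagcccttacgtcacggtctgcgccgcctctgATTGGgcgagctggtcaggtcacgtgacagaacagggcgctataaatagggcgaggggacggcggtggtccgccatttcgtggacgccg
Srsf4, chr5:149345288-149345537, plus strand: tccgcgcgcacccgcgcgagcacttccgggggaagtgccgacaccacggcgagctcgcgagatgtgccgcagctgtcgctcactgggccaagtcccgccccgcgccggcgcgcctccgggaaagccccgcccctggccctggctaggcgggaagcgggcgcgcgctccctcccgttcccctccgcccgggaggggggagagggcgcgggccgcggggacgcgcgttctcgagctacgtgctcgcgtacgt
Srsf5, chr6:106336506-106336755, plus strand: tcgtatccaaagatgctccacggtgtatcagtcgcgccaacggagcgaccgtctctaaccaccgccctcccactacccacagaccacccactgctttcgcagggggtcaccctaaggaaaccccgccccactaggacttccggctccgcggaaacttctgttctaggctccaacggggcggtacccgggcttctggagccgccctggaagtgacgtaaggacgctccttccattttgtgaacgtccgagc
The Hnrnpc window holds 5 matches, 4 read as CCAAT and 1 as ATTGG, spread over most of its length, and those of Hnrnpab and Srsf1 hold 2 each. Windows with 3 matches belong to Hnrnpa1, Hnrnpl, Hnrnpr and Hnrnpul1, none of which passed the test, so the number of boxes does not separate the hnRNP genes that rose from the rest.

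Set beside the expression results, a CCAAT box in any window was found for 13 of 18 hnRNP genes, of which 5 rose, and of the 5 without one, 2 rose (Hnrnpd and Hnrnpu). Among those without, the windows of Hnrnph3 and Hnrnpk had a low GC content, 39.6% and 34.4%. Whether these windows act as promoters was not tested. Of the SR genes, 4 had one (Srsf1, Srsf2, Srsf3 and Srsf10) and all 4 rose, while of the 7 without, 1 rose (Srsf4). Over all tested genes with a promoter, 453 of 3834 with a CCAAT box rose (11.8%), and 678 of 6501 without one (10.4%). Several motifs were searched, and a link of any of them to the rises was not tested. The GC box GGGCGG, searched on both strands, was in 15 of 21 hnRNP and 9 of 12 SR windows, against 30.5% of all windows. By gene, 13 of 18 hnRNP genes had it, with all 7 that rose, and 9 of 11 SR genes, with 3 of the 5 that rose. The TATA box TATAAA was in 4 of 21 and 2 of 12 (12.9% of all), the E-box CACGTG in 4 of 21 and 1 of 12 (5.59%), and the ETS site CCGGAAG in 4 of 21 and 4 of 12 (7.27%). Of the 7 hnRNP and 5 SR genes that rose, 3 and 2 had the TATA box, 2 and 1 the E-box, and 2 and 1 the ETS site. The cAMP response element TGACGTCA, present in 1.59% of all windows, was in 0 windows of either family, as were the NRF1 site (0.762%) and the palindrome bound by ZBTB33 (0.341%). None of these motifs contains another, and base composition differs between promoters (median GC of all windows 51.2%), which these counts do not take into account.

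The counts of called genes in the lists of proteins that work beside the families are to be read against the 10.5% of all tested genes that rose and the 11.1% that fell. Of 52 tested RNA-binding splicing regulators outside the families, 8 rose, 2 fell and 42 did not pass, with a median log2 fold change of 0.065. Tardbp stood at 319, 273 and 252 CPM in the knockdown libraries, against 221, 227 and 196 CPM in the control libraries. Tardbp encodes TDP-43, which represses cryptic exons; it rose 1.31-fold (log2 fold change 0.39, SE 0.0643, adjusted p = 0.00595) and passed in all 8 versions of the block fit. Rbm3, a cold-induced RNA-binding protein and the most abundant of the list per gene length, stood at 591, 573 and 555 CPM in the knockdown libraries, against 418, 479 and 466 CPM in the control libraries. It rose 1.26-fold (log2 fold change 0.34, SE 0.0654, adjusted p = 0.0101). Fubp1, which binds AU-rich and intronic U-rich RNA, rose 1.26-fold, at 127, 114 and 108 CPM in knockdown and 86.4, 96.6 and 94.2 CPM in control libraries (adjusted p = 0.0179). Rbfox2, a regulator that binds GCAUG, fell, at 144, 165 and 173 CPM in knockdown and 185, 184 and 233 CPM in control libraries (log2 fold change -0.32, SE 0.0649, adjusted p = 0.0123). Celf2 stood at 19.5, 34.97 and 24.2 CPM in the knockdown libraries, against 24.0, 38.8 and 40.6 CPM in the control libraries. Celf2, which binds GU-rich RNA, fell (log2 fold change -0.40, SE 0.113, adjusted p = 0.0373), with overlapping groups. Syncrip, known as hnRNP Q and named here after its values were seen, stood at 247, 231 and 221 CPM in knockdown and 189, 196 and 201 CPM in control libraries and rose 1.19-fold (log2 fold change 0.25, SE 0.0629, adjusted p = 0.0238).

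Without pair 1, the calls ended for Rbm3 (log2 fold change 0.26), Fubp1 (0.22), Rbfox2 (-0.29), Celf2 (-0.44) and Syncrip (0.19). Without pair 2 they ended for Rbm3 (0.38), Fubp1 (0.38), Celf2 (-0.53) and Syncrip (0.26), and that of Celf2 also without pair 3 (-0.22). Celf2 was not called in DESeq2 with the block or under total count scaling either, and Rbm3, Rbfox2 and Celf2 were not called with the length correction.

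Of 32 tested SR-related proteins, 3 rose and 4 fell, counts near the 10.5% and 11.1% of all genes, with a median log2 fold change of 0.042. The related enhancer-binding proteins Tra2a and Tra2b went opposite ways. Tra2b stood at 178, 159.9 and 157 CPM in the knockdown libraries, against 132, 129 and 134 CPM in the control libraries. Tra2a stood at 127, 121 and 104 CPM in the knockdown libraries, against 135, 155 and 158 CPM in the control libraries. Tra2b rose (log2 fold change 0.32, SE 0.0595, adjusted p = 0.00863) with no overlap between groups, and Tra2a fell (log2 fold change -0.35, SE 0.0895, adjusted p = 0.0264) with none either. Srrm2, a large scaffold of nuclear speckles, fell, at 449, 479 and 451 CPM in knockdown and 544, 562 and 563 CPM in control libraries (log2 fold change -0.28, SE 0.0537, adjusted p = 0.00992). Rnps1, of the exon junction complex, rose at 148, 146 and 141 CPM in knockdown and 126, 135 and 121 CPM in control libraries (adjusted p = 0.0385), as did Ppig, an SR-type cyclophilin, at 90.3, 92.7 and 93.8 CPM in knockdown and 77.4, 84.5 and 77.9 CPM in control libraries (adjusted p = 0.0350). Sugp2 fell, at 22.6, 17.1 and 24.2 CPM in knockdown and 25.9, 21.3 and 29.9 CPM in control libraries (log2 fold change -0.27, adjusted p = 0.0446), a call that none of the other 7 versions of the block fit gave. Rbm39, the most abundant of the list per gene length though below Srrm2 in CPM, did not pass (log2 fold change 0.12, adjusted p = 0.143). It stood at 251, 231 and 251 CPM in knockdown and 226, 208 and 240.2 CPM in control libraries. Without pair 1 the calls ended for Tra2b (0.27), Srrm2 (-0.27), Rnps1 (0.18), Ppig (0.21) and Sugp2 (-0.31). Without pair 2 they ended for Tra2b (0.33), Tra2a (-0.34), Srrm2 (-0.30), Rnps1 (0.23), Ppig (0.25) and Sugp2 (-0.25), and without pair 3 for Sugp2 (-0.26). Total count scaling ended the call of Tra2a, the length correction those of Tra2a, Srrm2 and Rnps1, and DESeq2 with the block those of Rnps1 (adjusted p = 0.166) and Ppig (adjusted p = 0.178).

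Of 15 tested kinases, methylases and importers that act on SR and hnRNP proteins, 1 rose and 1 fell, which is not above the 10.5% and 11.1% of all genes. Srpk1 stood at 105, 98.9 and 96.6 CPM in the knockdown libraries, against 84.2, 90.9 and 83.9 CPM in the control libraries. Srpk1, the cytoplasmic kinase that phosphorylates SR proteins for nuclear import, rose 1.16-fold (log2 fold change 0.22, SE 0.0609, adjusted p = 0.0364) with no overlap between groups. Hipk2 stood at 17.1, 14.8 and 9.91 CPM in the knockdown libraries, against 19.4, 22.3 and 21.6 CPM in the control libraries. Hipk2, a nuclear kinase, fell (log2 fold change -0.62, SE 0.158, adjusted p = 0.0262). Prmt1, the main methylase of hnRNP arginines and the most abundant of the list per gene length, did not pass (log2 fold change 0.017, adjusted p = 0.877). It stood at 131, 133 and 139.6 CPM in knockdown and 118, 144 and 139 CPM in control libraries. The Srpk1 call ended without pair 1 (0.17), without pair 2 (0.27) and in DESeq2 with the block, and the Hipk2 call without pair 2 (-0.64).

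Nonsense-mediated decay removes the poison-exon transcripts of both families. Of its 15 tested factors, 2 rose and 2 fell, near the 10.5% and 11.1% of all genes, with a median log2 fold change of 0.010. Magohb stood at 11.1, 8.90 and 7.57 CPM in the knockdown libraries, against 6.34, 4.65 and 6.53 CPM in the control libraries. Magohb, of the exon junction complex, rose 1.57-fold (log2 fold change 0.65, SE 0.171, adjusted p = 0.0293), and its partner Rbm8a rose, at 61.5, 62.6 and 66.6 CPM in knockdown and 54.3, 55.8 and 53.9 CPM in control libraries (adjusted p = 0.0414). Smg1 stood at 199.9, 198 and 154 CPM in the knockdown libraries, against 233, 233 and 234 CPM in the control libraries. Smg1, the kinase that starts decay by phosphorylating UPF1, fell (log2 fold change -0.35, SE 0.0793, adjusted p = 0.0166), as did Smg6, the endonuclease of the pathway, at 20.9, 24.2 and 27.1 CPM in knockdown and 28.4, 28.9 and 33.0 CPM in control libraries (adjusted p = 0.0235). Eif4a3, the most abundant of the list per gene length though below Smg1 in CPM, did not pass (log2 fold change 0.048, adjusted p = 0.585). It stood at 101, 109 and 111 CPM in knockdown and 103, 101 and 106 CPM in control libraries. Without pair 1 the calls ended for Magohb (0.57), Rbm8a (0.24) and Smg6 (-0.26), without pair 2 for Magohb (0.51), Rbm8a (0.24), Smg1 (-0.41) and Smg6 (-0.36), and without pair 3 for Rbm8a (0.17). The calls of all 4 ended with the length correction, that of Smg6 under total count scaling, and those of Magohb, Rbm8a and Smg6 in DESeq2 with the block.

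Of 5 tested proteins linked to MIAT by earlier work or by the series title, 1 rose (Srsf1, given above), 1 fell (Dhx9) and 3 did not pass (Sf1, Qk and Celf3). Dhx9 stood at 182, 192 and 158 CPM in the knockdown libraries, against 211, 214 and 192 CPM in the control libraries. Dhx9, the helicase of the series title, fell (log2 fold change -0.22, SE 0.0548, adjusted p = 0.0250), without overlap between groups. Its call ended without pair 1 (log2 fold change -0.22), without pair 2 (-0.25), when scaled by total counts (-0.11) and with the length correction (-0.17). Sf1, the branch point binding protein, stood at 168, 162 and 169 CPM in knockdown and 179.5, 171 and 169 CPM in control libraries and did not pass (log2 fold change -0.062, adjusted p = 0.443). Qk, the gene of QKI, stood at 208, 196 and 196 CPM in knockdown and 182, 191 and 210.3 CPM in control libraries and did not pass either (log2 fold change 0.043, adjusted p = 0.675). Celf3, a GU-binding relative of Celf2, had an adjusted p of 0.785.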

How the data were processed

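Polyadenylated RNA was sequenced from rat vascular smooth muscle cells, in 3 MIAT knockdown and 3 Scr control libraries. Raw counts per gene symbol and FPKM were deposited. Each of the 99047 FPKM values above 0 (100%) was the gene's count over a fixed gene length and over the sum of counts in that library (relative tolerance 1e-06). How reads were aligned and counted, with which build and strand setting, is not given in the sources used here, and reads from overlapping or antisense genes cannot be told apart. Gene names were taken as deposited, and RefSeq's GRCr8 table served for names of pseudogenes and for promoter sequences. Total counts ranged from 17793811 to 20121161 per library.

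The main test was edgeR's quasi-likelihood test (edgeR 4.0.16, R 4.3.3) of knockdown against control on the counts, with TMM scaling, filterByExpr, no covariate and Benjamini-Hochberg adjustment over the 13423 genes tested, called at 0.05. Standard errors of edgeR fits were computed as the absolute log2 fold change over the square root of the test's F statistic. CPM are TMM-scaled, and pair differences are log2 differences of these CPM with no prior count. The log2 CPM behind the correlations given next had a prior count of 2. Same-numbered libraries deviated together from their group means, with correlations across genes of 0.68, 0.52 and 0.58 against -0.56 to -0.05 for other matches. Such deviations sum to 0 within a group, which makes part of this contrast. The labels state no pairing; it was taken from the shared numbers and from each same-number correlation exceeding 0.1. The fit with a replicate block is therefore printed beside the other. It has a biological coefficient of variation of 8.09% and 2 residual degrees of freedom, against 19.7% and 4 for the fit that omits the block. Separate cultures are not stated in the labels, so the p-values rest on the spread among these libraries alone, part or all of which may be technical.

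Members were chosen by symbol. Members, gene lists and tests were all chosen with earlier results of these data known. Named with library values were members past the threshold with the block and the 2 most abundant members of each family. For each list, the most abundant gene and up to 3 called genes in each direction with the largest change were named. Abundance was ranked per gene length, by mean FPKM. Hnrnph1, Srsf11 and Srsf12 are also given by library, chosen after their values were seen, and the other members are named with group means or fold changes. Alternatives were DESeq2 1.42.0, limma-voom and limma (3.58.1) on log2(FPKM + 1) and log2(FPKM + 0.1), other scalings and filters, a gene length correction (loess, span 0.5), and leaving out each library or pair. The scripts were checked on simulated counts with known fold changes. The check required recovery of 2-fold changes only, which are larger than those of the members. It therefore does not cover calls of the size seen here. Promoter windows were the 250 bases before each start in RefSeq's table. No protein sequence or genome was used here.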

Additional observations from a re-analysis of the deposited data

How the results depend on the processing

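Without the replicate block, edgeR called 0 genes under DESeq2 size factors, total count scaling, either other low-count filter and without any 1 of the 6 libraries, as did limma-voom and limma on either log2 FPKM scale. DESeq2 without the block called 699 genes, 5 hnRNP and 1 SR gene higher. The replicate block gave 2898 genes, 7 hnRNP and 5 SR genes higher, DESeq2 with the block 1590, 6 and 1, the block with the length correction 2282, 7 and 4, with no low-count filter 3128, 7 and 5, and with total count scaling 3641, 13 and 7. The block fit gave 1195 genes, 4 hnRNP and 0 SR genes without pair 1, 736, 4 and 0 without pair 2, and 4124, 7 and 6 without pair 3, with 1 residual degree of freedom left in each. The hnRNP median of 0.12 became 0.23 under total count scaling with or without the block and on log2(FPKM + 0.1), and 0.22 on log2(FPKM + 1). The SR median of 0.19 became 0.30 under total count scaling and 0.27 with the block added, each of these being the value of Srsf12. Without 1 library the SR median ran from 0.10, without knockdown library 1, to 0.24. The shift of 0.107 in the median of all genes under total count scaling is of the size of these moves.

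Sign changes were seen only in values near 0, none of them past the threshold. Under total count scaling Hnrnph3, Hnrnpm, Hnrnpul2, Srsf5 and Sf1 became 0.040, 0.10, 0.040, 0.064 and 0.045 without the block and 0.037, 0.10, 0.040, 0.066 and 0.046 with it. On log2(FPKM + 1) they were 0.034, 0.10, 0.040, 0.065 and 0.045, and on log2(FPKM + 0.1) 0.035, 0.10, 0.041, 0.066 and 0.046. Hnrnpm became 0.0019 with no low-count filter and 0.0012 with the block added. The length correction with the block turned Srsf9 to -0.076, Prmt1 to -0.049 and Eif4a3 to -0.024. In the block fit, Prmt1 was -0.046 and Qk -0.027 without pair 1, Srsf9 was -0.0038 without pair 2, and Hnrnpm was 0.024 without pair 3. Without the block, leaving out 1 library at a time gave ranges that cross 0 for Hnrnpm (-0.056 to 0.032), Hnrnph3 (-0.14 to 0.0072), Srsf9 (-0.012 to 0.034), Prmt1 (-0.071 to 0.061), Hnrnpul1 (-0.0043 to 0.082), Srsf5 (-0.090 to 0.0035) and Qk (-0.0089 to 0.10). The cause of each was not tested. Srsf12 had 33 to 58 counts a library and the widest error (SE 0.258), and the block fit rests on 2 residual degrees of freedom.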
